A study of Mus musculus with 9 samples.

Results

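Gli3 and Hand2 encode transcription factors that set up the anterior to posterior axis of the early limb bud. The regions examined were chromosome 13 from 15400000 to 16000000 (Gli3, 600 kb) and chromosome 8 from 59200000 to 59900000 (Hand2 and the gene desert upstream of it, 700 kb), in the mouse build mm9. A peak was a member when its start lay in one of these windows, a rule of position that used no measured value. The windows themselves were chosen with earlier results of these data known. The windows held 229 of the 243649 peaks deposited in 5 lists, 70 at Gli3 and 159 at Hand2. The data are chromatin immunoprecipitation sequencing (ChIP-seq) of the homeodomain proteins Hoxa13 and Hoxa11 from the limbs of ICR mouse embryos, all wild type. Each list gives the places where precipitated DNA was enriched, called in 1 library. Hoxa13 was mapped at embryonic day 11.0 (E11.0) in 11 pairs of autopods, the part that forms hand and foot. At E11.5 whole limb buds were used, and at E12.5 limb buds, again with 1 library per stage. Hoxa11 was mapped in E11.5 whole limb buds only, as replicate 1 and replicate 2. For E11.0 and E11.5 the labels give 10 µg of Hoxa13 antibody or 8 µg of Hoxa11 antibody, all home-made, and for E12.5 they refer to an earlier procedure. Stage therefore changes together with tissue between E11.0 and E11.5, and together with protocol between E11.5 and E12.5, so these cannot be told apart. Peak lists carry no expression values, and the tissues were not checked against marker genes.

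Hand2 is a basic helix-loop-helix factor of the posterior limb mesenchyme that acts upstream of Sonic hedgehog (Shh), the signal of the posterior margin. Gli3 is a zinc finger factor of the hedgehog pathway. Without Shh it is processed to a repressor, which acts mainly in the anterior limb bud, and the genes restrain each other before Shh is switched on. Hoxa13 acts in the forming hand and foot, and Hoxa11 in the forearm and lower leg. In the annotation of GRCm38.p6 the nearest protein-coding neighbours of Gli3 are AW209491 and Inhba, and those of Hand2 are Fbxo8 and Scrg1. Coordinates were not converted between builds, so no peak was placed in an exon, intron or promoter.

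The promoters of both genes are shown because they differ in the letters that posterior HOX proteins often bind. They are the 250 bases before the RefSeq start of each gene in GRCm38.p6, both on the plus strand, Gli3 at chr13:15463473-15463722 and Hand2 at chr8:57320733-57320982. Capitals mark ATAAA and CAATAAA on either strand, which read TTTAT and TTTATTG on the other strand.
Gli3: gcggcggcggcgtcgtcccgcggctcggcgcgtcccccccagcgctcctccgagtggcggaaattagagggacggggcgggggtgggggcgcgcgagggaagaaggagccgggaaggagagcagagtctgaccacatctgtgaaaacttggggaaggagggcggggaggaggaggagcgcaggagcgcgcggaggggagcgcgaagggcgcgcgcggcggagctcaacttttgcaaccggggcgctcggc
Hand2: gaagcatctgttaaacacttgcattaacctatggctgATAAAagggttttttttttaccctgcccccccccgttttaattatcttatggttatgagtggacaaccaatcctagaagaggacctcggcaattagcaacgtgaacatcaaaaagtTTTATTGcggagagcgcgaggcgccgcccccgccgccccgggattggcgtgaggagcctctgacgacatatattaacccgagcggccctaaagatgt
The Hand2 promoter held ATAAA at bases 38 to 42 and TTTATTG at bases 154 to 160, counted from the 5′ end of the sequence shown. That longer match contains TTTAT at bases 154 to 158. Neither motif was found in the Gli3 promoter, and TCGTAAA, also searched on both strands, was in neither promoter. Of 32851 promoter stretches of this length, 37.3% held ATAAA, 4.20% held CAATAAA and 0.478% held TCGTAAA on either strand. The promoters also differ in base composition, with a GC content of 72.8% at Gli3 and 49.2% at Hand2, against a median of 52.4% over all promoters. These matches describe letters only, and no peak can be set on them.

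Hoxa13 peaks were dense at Hand2 at every stage and closer to the average of the list at Gli3. At E11.0 the Hand2 window held 36 Hoxa13 peaks and the Gli3 window 13. At E11.5 it held 87 and the Gli3 window 42. At E12.5 the numbers were 31 and 14. In the order E11.0, E11.5, E12.5, Hand2 had 5.14, 12.4 and 4.43 peaks per 100 kb and Gli3 had 2.17, 7 and 2.33. The whole lists, taken over chromosomes 1 to 19, X and Y, had 1.93, 5.54 and 1.70. Hand2 was thus 2.66, 2.25 and 2.61 times as dense as the list at the successive stages, and Gli3 1.12, 1.26 and 1.37 times. The higher number at E11.5 in both windows follows the length of that list, 143460 peaks where E11.0 has 50890 and E12.5 has 44699, and read depth is unknown.

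**Figure D1:**
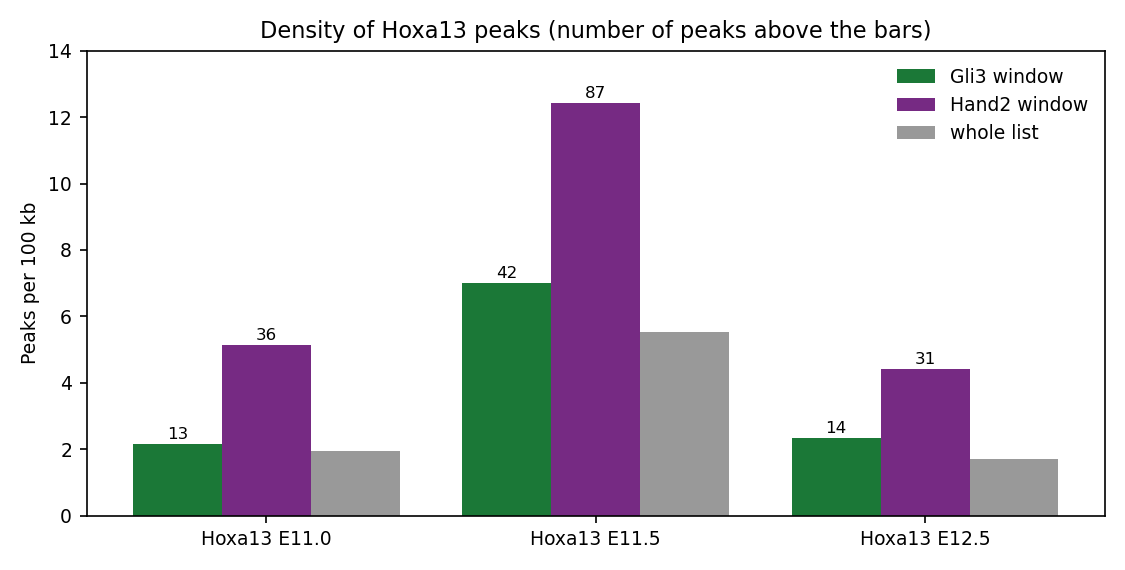
Hoxa13 peaks per 100 kb (vertical axis) at 3 stages (horizontal axis) in the Gli3 window, the Hand2 window and the whole list. The number of peaks stands above each Gli3 and Hand2 bar. Each stage is 1 library, so there are no error bars. The Hand2 bar is above the other bars at each stage, and the Gli3 bars of 2.17, 7 and 2.33 lie near the whole lists at 1.93, 5.54 and 1.70.

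Windows of the same length along the genome place these numbers. Of 3662 windows of 700 kb, 1.86% held at least as many E11.0 peaks as the Hand2 window, 1.86% as many E11.5 peaks and 1.99% as many E12.5 peaks. The median such window held 36 peaks at E11.5 and 11 at E12.5. Of 4271 windows of 600 kb, 37.7%, 29.4% and 25.9% held at least as many peaks as the Gli3 window in the same order of stages, with medians of 10, 31 and 9. Gli3 therefore lay above the median window and Hand2 near the top of the range. These shares describe where each window falls among all windows and are not a test. The stretches beside the windows were less dense than Hand2 itself: the 700 kb before it held 33, 76 and 20 peaks in that order, and the 700 kb after it held 14, 49 and 17. At Gli3 the 600 kb before the window held more, 24, 49 and 22 peaks, and the 600 kb after it held 11, 36 and 17.

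**Figure D2:**
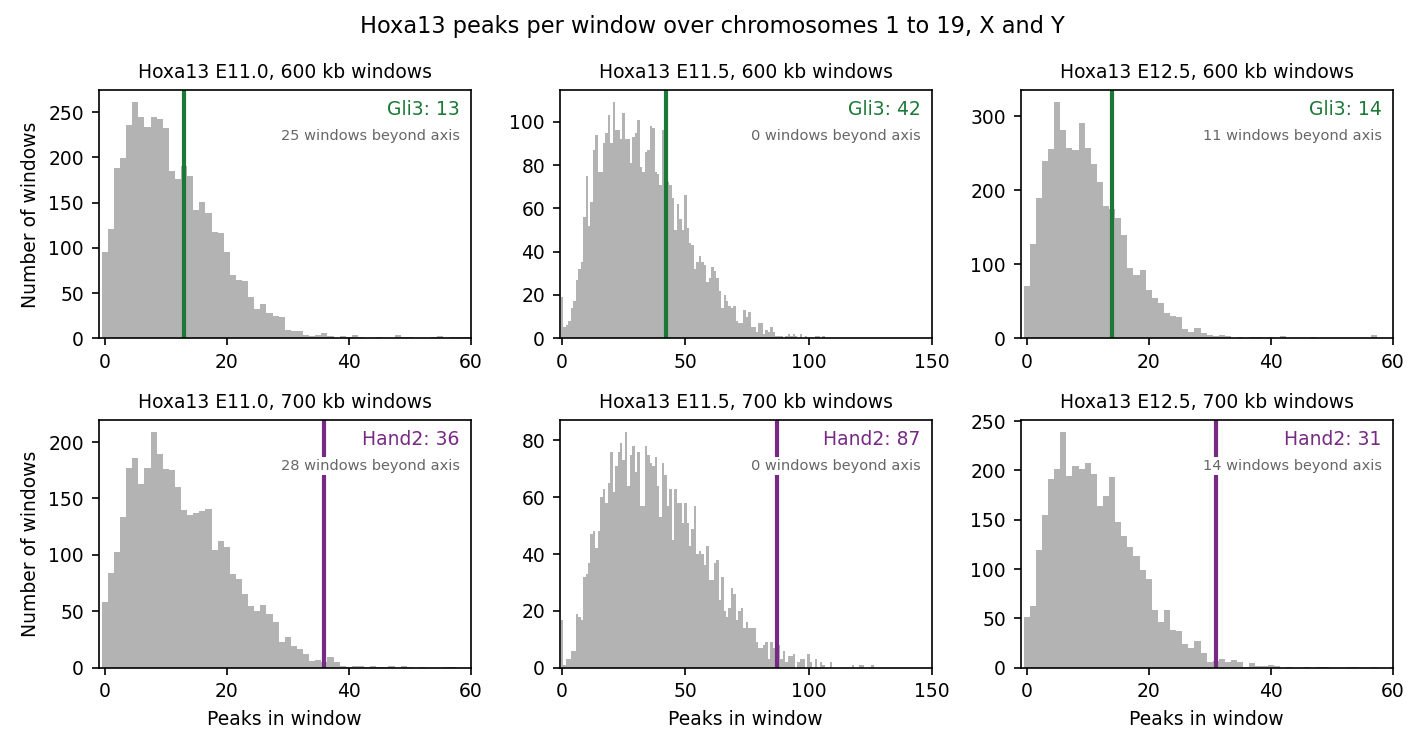
Number of windows (vertical axis) by the Hoxa13 peaks they hold (horizontal axis) for windows of 600 kb (upper row) and 700 kb (lower row) at E11.0, E11.5 and E12.5, with a coloured line at Gli3 or Hand2. The Hand2 lines at 36, 87 and 31 peaks lie in the right tail, and the Gli3 lines at 13, 42 and 14 lie to the right of the medians at 10, 31 and 9.

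No shift with stage in how the peaks divided between the windows passed the test. Hoxa11 had too few peaks to decide on a shift with protein. Of the Hoxa13 peaks in both windows, Gli3 held 26.5% in the E11.0 list (95% exact interval 14.9 to 41.1), 32.6% at E11.5 (24.6 to 41.4) and 31.1% at E12.5 (18.2 to 46.6). The Gli3 window is 46.2% of the joint length, above each interval at E11.0 and E11.5 and just inside that at E12.5. Between E11.0 and E11.5 the odds ratio of the split was 0.749 (0.329 to 1.63, two-sided Fisher's exact test, adjusted p = 1). Between E11.5 and E12.5 it was 1.07 (0.490 to 2.41, Fisher's exact test, adjusted p = 1), and between E11.0 and E12.5 0.802 (0.296 to 2.15, adjusted p = 1). Both Hoxa11 replicates set against Hoxa13 at E11.5 also gave an adjusted p of 1 in Fisher's exact test, over 3 Hoxa11 peaks each. Each of the 3 stage intervals takes in a shift of 2-fold in at least one direction. Neighbouring peaks of 1 library are not independent, so the tests compare peak lists at these places and not conditions.

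Within the windows the peaks were spread unevenly. In the Hand2 window, E11.0 peaks were most frequent in the fourth stretch of 100 kb, from 59500001 to 59600000, with 11, and the last stretch, from 59800001 to 59900000, held 1. E11.5 peaks numbered 19 in the stretch from 59400001 to 59500000 and 17 in the fourth, against 6 in the last. At E12.5 the first stretch, from 59200001 to 59300000, held most, with 8, and the others held 3 to 5. Thus the E11.0 and E11.5 lists were fullest in the middle of the Hand2 window and the E12.5 list at its start. The E12.5 peaks of that first stretch included a close group starting at 59210943, 59212314, 59212633 and 59213366. Each of this group met an E11.5 peak, and the E11.5 list had 14 peaks in the stretch. The difference in position between stages was not tested. In the Gli3 window the counts per 100 kb were 1 to 3 at E11.0, 6 to 11 at E11.5 and 1 to 4 at E12.5. The fullest Gli3 stretch at E11.5, with 11 peaks, ran from 15700001 to 15800000. The longest run of sequence without a peak of any list was 43862 bp at Gli3 (15915842 to 15959703) and 40667 bp at Hand2 (59749458 to 59790124). Neighbours were close at Hand2, where 94.3% of E11.5 peaks had another peak of that list within 10 kb, against 61.9% at Gli3 and 73.4% in the whole list. How far this goes with the density of the window was not tested. At E11.0 the shares were 63.9% at Hand2 and 46.2% at Gli3, where the list has 46.2%, and at E12.5 54.8% and 14.3%, where the list has 40.5%.

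**Figure D3:**
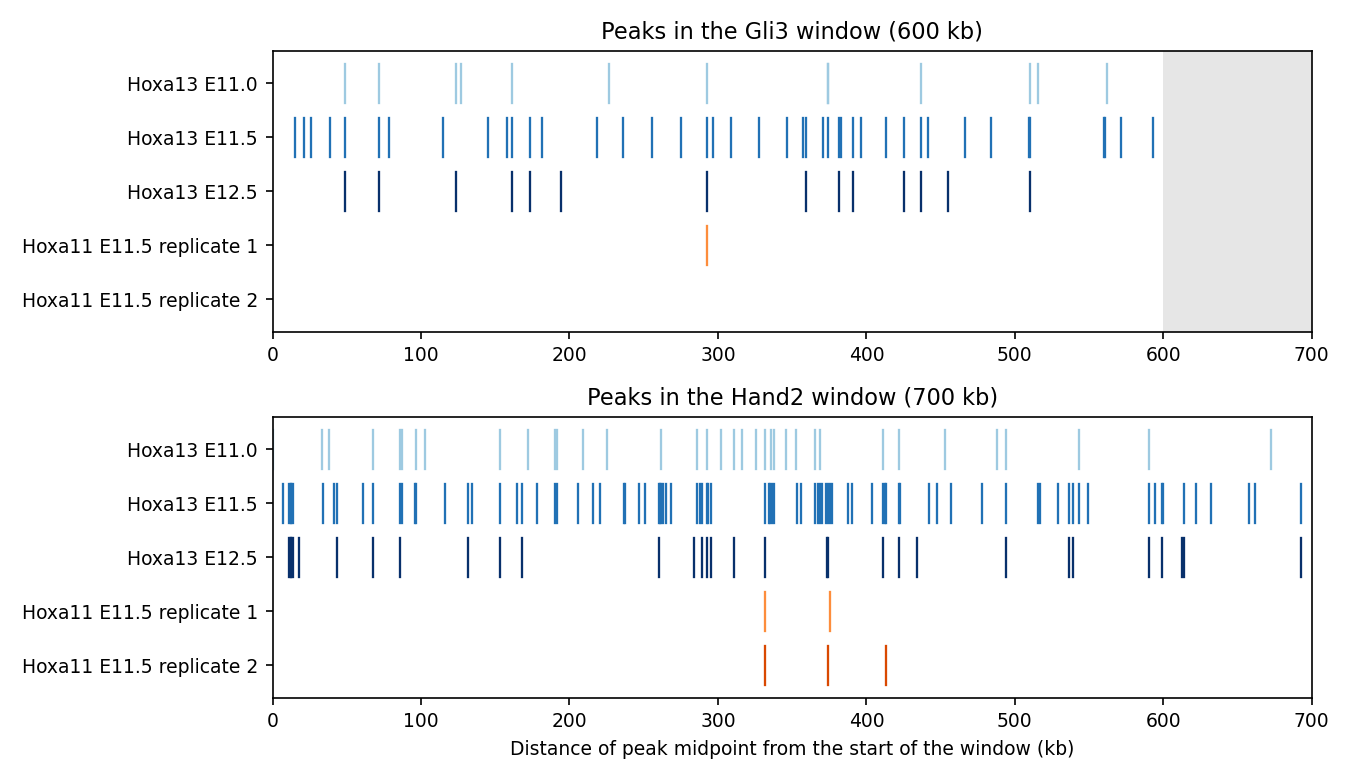
Position of each peak midpoint in kb from the start of the window (horizontal axis) for the 5 lists (rows) at Gli3 (600 kb, upper panel, grey beyond the window) and Hand2 (700 kb, lower panel). The Hand2 rows are more crowded than the Gli3 rows, and Hoxa11 has 1 peak at Gli3 and 5 at Hand2.

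The limits of the windows cut through a continuous series of peaks. The first member at Gli3 was an E11.5 peak of 277 bp, 15178 bp inside the limit, and the last one outside before it lay 6207 bp away (203 bp wide). At the other end an E11.5 peak of 293 bp lay 6814 bp inside and one of 351 bp lay 1926 bp outside. At Hand2 an E11.0 peak of 210 bp lay 114 bp inside the first limit and an E11.5 peak of 221 bp lay 5534 bp before it. At the last limit an E12.5 peak of 149 bp lay 7443 bp inside and an E11.5 peak of 269 bp lay 4055 bp beyond.

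Peak width is the only value that 4 of the 5 lists allow, and it set the windows apart at E11.5. There the median width was 324 bp at Hand2 (203 to 1273), 271 bp at Gli3 (203 to 1261) and 286 bp in the whole list. Of the Hand2 peaks, 57 of 87 (65.5%) were at or above the list's median width, which 50.4% of the list is, and 19 of 87 were among its widest 10% (9.98% of the list). At Gli3 the numbers were 20 and 4 of 42. The other stages did not show this at Hand2: 16 of 36 peaks reached the list's median width at E11.0 (50.1% of the list) and 14 of 31 at E12.5 (50.7%). Among the widest 10% were 2 of those E11.0 peaks (9.97% of the list) and 4 of those E12.5 peaks (9.90%). Median widths were 237 bp at E11.0 and 149 bp at E12.5 at Hand2, and 245 and 161.5 bp at Gli3, against 245 and 154 bp in the lists. The difference in width between the windows was not tested. When each Hoxa13 list was limited to its widest 44699 peaks, E11.5 left 42 peaks at Hand2, 3.48 times the density of the limited list, and 12 at Gli3, 1.16 times.

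The widest E11.5 peaks of the windows were of like size. At Hand2 it was chr8:59531197-59532469, 1273 bp, the 125th widest of its list, and at Gli3 chr13:15773670-15774930, 1261 bp, the 130th. Their partners differed. The Hand2 peak met Hoxa13 at E11.0 and E12.5 and Hoxa11 in both replicates. The Gli3 peak covered the widest E11.0 peak of its window (447 bp) and another of 294 bp and met no E12.5 or Hoxa11 peak. Next in width at E11.5 came chr8:59610550-59611544 (995 bp, found at all stages) and chr8:59573468-59574320 (853 bp, met by E12.5 and Hoxa11 replicate 2) at Hand2. At Gli3 they were chr13:15635918-15636441 (524 bp) and chr13:15580899-15581397 (499 bp), neither met by any other list. So all of the 3 widest E11.5 peaks at Hand2 recurred in another list and 1 of the 3 at Gli3 did. These counts do not compare like with like. The Gli3 peaks of 524 and 499 bp were narrower than the Hand2 peaks of 995 and 853 bp, and a wider peak is easier to meet. In the whole E11.5 list 67.4% of peaks met neither other Hoxa13 stage. The share for peaks of such widths is not given here.

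At the outer stages the widest peaks were mostly shared as well. The widest E11.0 peak at Hand2, chr8:59285755-59286346 (592 bp), was found at all stages, and the next, chr8:59287132-59287542 (411 bp), met E11.5 only. After it came chr8:59531817-59532175 (359 bp), which lay in the widest E11.5 peak. At Gli3 the second-widest E11.0 peak, chr13:15523586-15523929 (344 bp), met E12.5 but not E11.5. By an overlap of at least 1 bp, it formed the 1 site in either window held by both outer stages without E11.5. At E12.5 the widest Hand2 peaks were chr8:59693616-59694083 (468 bp), chr8:59531811-59532169 (359 bp) and chr8:59489424-59489755 (332 bp), and all met E11.5. Those of Gli3 were narrower, chr13:15825232-15825439 (208 bp), chr13:15448792-15448994 (203 bp) and chr13:15790840-15791026 (187 bp), and all met E11.5 too.

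The next comparison asked how far the same places were occupied at successive stages in each window. By an overlap of at least 1 bp, 26 of 31 E12.5 peaks at Hand2 (83.9%, 66.3 to 94.5) and 11 of 14 at Gli3 (78.6%, 49.2 to 95.3) met an E11.5 peak, against 70.7% of the list. For E11.0 peaks meeting E11.5 the shares were 58.3% at Hand2 (40.8 to 74.5) and 61.5% at Gli3 (31.6 to 86.1), against 58.1% of the list. Seen from E11.5, 24.1% of Hand2 and 16.7% of Gli3 peaks met E11.0 (20.5% of the list), and 28.7% and 26.2% met E12.5 (21.7% of the list). All of these intervals took in the list's share. The level of the shares rests on the overlap of 1 bp. Under 50% reciprocal overlap, 6 of 31 E12.5 peaks at Hand2 (19.4%) and 4 of 14 at Gli3 (28.6%) met E11.5, against 29.6% of the list, and 6.90% and 9.52% of E11.5 peaks met E12.5, against 9.23%. For E11.0 peaks meeting E11.5 that rule left 36.1% at Hand2 and 30.8% at Gli3. The list's share under it is not given here for that pair, so these values have no background.

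The widest gap between the windows was in the overlap of the outer stages. At Gli3, 7 of 13 E11.0 peaks (53.8%, 25.1 to 80.8) met E12.5, and at Hand2 9 of 36 did (25.0%, 12.1 to 42.2), against 30.7% of the list. The odds ratio of Gli3 against Hand2 was 3.40 (0.758 to 16.1, two-sided Fisher's exact test p = 0.0856, adjusted p = 0.942). In the other direction 7 of 14 E12.5 peaks at Gli3 (50%) and 9 of 31 at Hand2 (29.0%) met E11.0, against 35.6% of the list (odds ratio 2.39, 0.543 to 10.9, Fisher's exact test, adjusted p = 1). For E12.5 peaks meeting E11.0 the gap narrowed to 35.7% at Gli3 against 29.0% at Hand2 with only the widest peaks of each list, in equal number. In windows extended by 100 kb on each side it narrowed to 34.8% against 27.8%. For E11.0 peaks meeting E12.5 the gap stayed wider. It was 45.5% at Gli3 against 27.3% at Hand2 with the widest peaks, and 47.1% against 24.4% in the extended windows. List shares under these settings are not given here. Of the 11 tests of the split and the sharing, 0 passed 0.05 by Fisher's exact test, adjusted or unadjusted, and adjusted p ran from 0.942 to 1. With so few peaks per window this does not show that the windows recur alike.

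**Figure D4:**
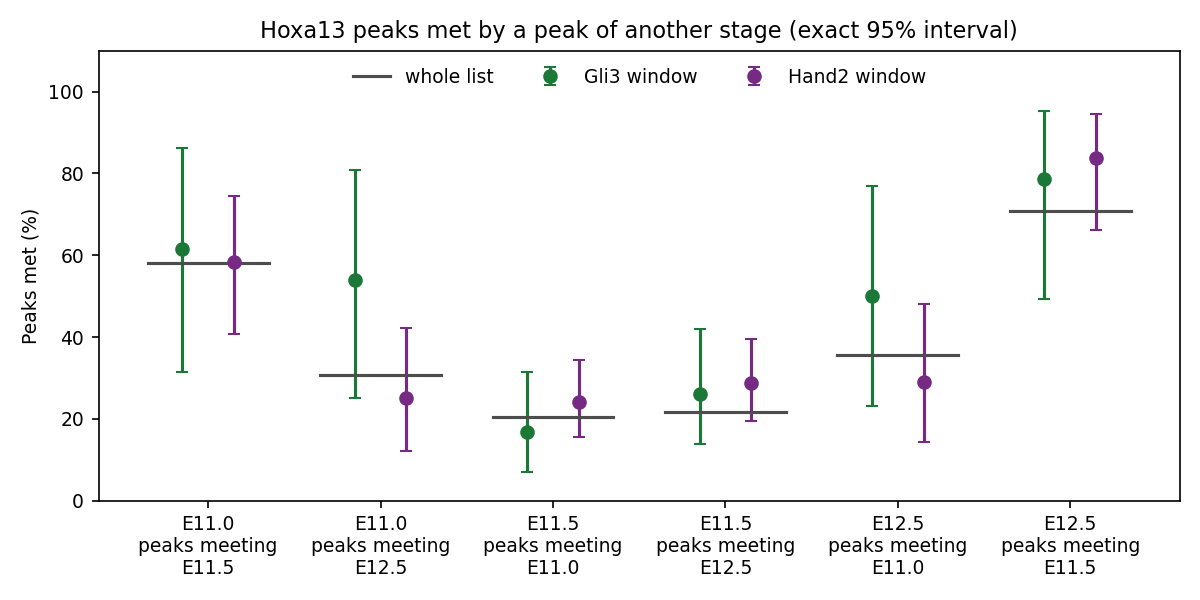
Share of Hoxa13 peaks in percent (vertical axis) met by a peak of another stage, for the 6 ordered pairs of stages (horizontal axis), in the Gli3 and Hand2 windows with exact 95% intervals over peaks and as a line for the whole list. Each interval crosses the line of its list, and the windows stand farthest apart for E11.0 peaks meeting E12.5 (53.8% and 25.0%).

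By combination of stages, the windows resembled their lists at most points. Of E11.5 peaks, 50 of 87 at Hand2 (57.5%, 46.4 to 68.0) and 30 of 42 at Gli3 (71.4%, 55.4 to 84.3) met neither other stage, against 67.4% of the list. Of E11.0 peaks, 15 of 36 at Hand2 and 4 of 13 at Gli3 met neither (37.9% of the list), and of E12.5 peaks 5 of 31 and 2 of 14 (24.5% of the list). Hand2 had 12 E11.5 peaks shared with E11.0 only and 16 shared with E12.5 only. Gli3 had 1 and 5 of these. As shares they were 13.8% and 18.4% at Hand2 and 2.38% and 11.9% at Gli3, against 11.0% and 12.1% of the list, which lay within each interval. E12.5 without E11.5 was met by 0 of 36 E11.0 peaks at Hand2 (interval up to 9.74%) and 1 of 13 at Gli3, against 3.91% of the list. The 0 at Hand2 rests on the overlap of 1 bp. An E11.0 peak there ended at 59510739 and an E12.5 peak began at 59510777, with no E11.5 peak between. With midpoints within 500 bp, 10 of 36 E11.0 peaks at Hand2 met E12.5. Peaks that met both other stages were 9 of 36, 9 of 87 and 9 of 31 at Hand2 in order of stage, and 6 of 13, 6 of 42 and 6 of 14 at Gli3, against 26.8%, 9.60% and 30.8% of the lists. E11.5 peaks shared with another stage were the wider ones, with a median of 402 against 295.5 bp at Hand2 and 358.5 against 249.5 bp at Gli3 (341 against 267 bp in the list). A wider peak is easier to meet.

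Peaks of all 5 lists were then joined into sites where they shared at least 1 bp, which gave 107 sites at Hand2 (15.3 per 100 kb) and 49 at Gli3 (8.17 per 100 kb). Sites of all 3 Hoxa13 stages numbered 9 at Hand2 (8.41%, 3.92 to 15.4) and 6 at Gli3 (12.2%, 4.63 to 24.8), against 7.81% of all sites in the genome. Per 100 kb these are 1.29 at Hand2 and 1.00 at Gli3, so the windows were closer in such recurrent sites than in total sites. The difference was not tested. Site densities over the genome are not given here, so those of the windows have no background. As in the genome, where 71.9% of sites do, most sites belonged to 1 Hoxa13 stage, 70 of 107 at Hand2 (65.4%) and 36 of 49 at Gli3 (73.5%). An E11.5 peak and no other made up 48 sites at Hand2 (44.9%) and 30 at Gli3 (61.2%), against 54.4% in the genome. An E11.0 peak and no other made up 15 and 4 sites (14.02% and 8.16%, against 10.9%), and an E12.5 peak and no other 5 and 2 (4.67% and 4.08%, against 6.14%).

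The recurrent Gli3 sites were chr13:15448712-15449092, chr13:15471242-15471535, chr13:15560765-15561196, chr13:15692109-15692599, chr13:15836348-15836675 and chr13:15910108-15910456. They were 294 to 491 bp wide, with a median of 365 bp. None lay in the stretch from 15700001 to 15800000, which had the most E11.5 peaks of the window. At Hand2 the 8 widest recurrent sites were chr8:59531196-59532469, chr8:59610550-59611544, chr8:59790125-59790849, chr8:59285683-59286385, chr8:59352927-59353469, chr8:59693568-59694094, chr8:59492145-59492601 and chr8:59621717-59622094, and the ninth was chr8:59267237-59267571. They were 335 to 1274 bp wide, with a median of 543 bp. The stretch from 59600001 to 59700000 held 3 of them and the last stretch of the window held 0. Peaks of E11.0 and E12.5 mostly fell inside the E11.5 peak of the site. At chr8:59610550-59611544, for example, they took bases 293 to 635 and 329 to 634 of 995.

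Hoxa11 gave few peaks in these windows, and all of them overlapped Hoxa13 peaks by at least 1 bp. Under 50% reciprocal overlap 2 of the 5 at Hand2 and 0 of 1 at Gli3 met Hoxa13 at E11.5. The shares of the whole Hoxa11 lists under that rule are not given here, so these counts have no background. Replicate 1 had 1 peak at Gli3 and 2 at Hand2, and replicate 2 had 0 and 3. The whole lists are short, 2953 and 1647 peaks. Hand2 was 2.56 times as dense as the list in replicate 1 and 6.95 times in replicate 2. Gli3 was 1.49 and 0 times as dense, and all of these ratios rest on at most 3 peaks. Of 700 kb windows, 17.6% held at least 2 peaks of replicate 1 and 3.36% at least 3 of replicate 2. Of 600 kb windows, 36.8% held at least 1 peak of replicate 1. Each of the 6 Hoxa11 peaks met a Hoxa13 peak of E11.5, which 71.0% of replicate 1 and 70.8% of replicate 2 peaks do. E12.5 was met by 2 of the 3 replicate 1 peaks (48.8% of its list) and 1 of the 3 replicate 2 peaks (55.7%). E11.0 was met by 2 of the replicate 1 peaks (23.9%) and by 0 of replicate 2 (30.5%). The titles name 1 input library for Hoxa11 replicate 1 and the E11.5 Hoxa13 library together, and its part in the overlap was not tested. Both replicates met at 1 site, at Hand2, and at none in the Gli3 window. In their whole lists 35.8% of replicate 1 and 64.6% of replicate 2 peaks met the other replicate.

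That site, chr8:59531196-59532469, was the only one in either window held by all 5 lists. The proteins and stages did not fill it evenly. Hoxa11 replicate 1 took bases 1 to 787 of 1274, the 118th widest peak of its list, and replicate 2 took bases 93 to 451. Hoxa13 at E11.5 spanned bases 2 to 1274. Hoxa13 at E11.0 lay at bases 622 to 980 and at E12.5 at bases 616 to 974, so these shared 353 bp with each other. They began 170 and 164 bp after the end of the Hoxa11 replicate 2 peak and shared 166 and 172 bp with replicate 1. Both Hoxa11 peaks thus lay toward the start of the site and the outer Hoxa13 stages in its second part. In the authors' deposited replicate 2 list the peak had a fold enrichment of 4.24 over the caller's background and a −log10 q of 7.64, with its summit at 59531492. It ranked 757 of 1647 by score, and the list's median fold was 3.90, so it was an ordinary peak of that list.

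**Figure D5:**
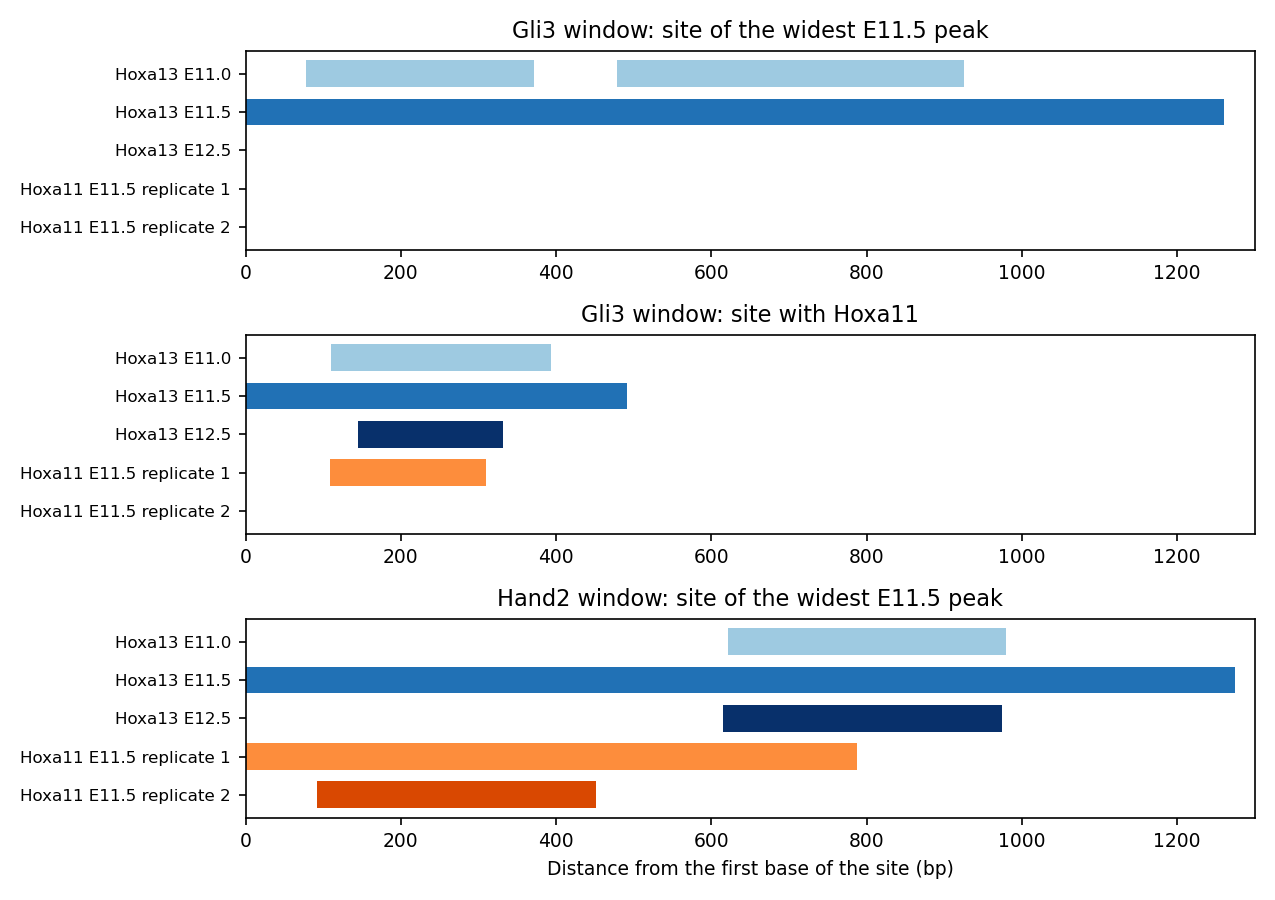
Extent of each peak in bp from the first base of the site (horizontal axis) for the 5 lists (rows) in 3 sites: that of the widest E11.5 peak at Gli3, the Gli3 site with Hoxa11, and that of the widest E11.5 peak at Hand2. In the Hand2 site the Hoxa11 replicate 2 peak (bases 93 to 451) ends before the E11.0 and E12.5 Hoxa13 peaks begin (bases 622 and 616), while the 4 peaks of the Gli3 site with Hoxa11 overlie each other.

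The other Hoxa11 peaks were each found in 1 replicate. At Gli3, the replicate 1 peak chr13:15692218-15692418 (201 bp) lay in a site of all 3 Hoxa13 stages, where it shared 200, 201 and 165 bp with their peaks in order of stage. It was among the narrow peaks of its list, 2795th of 2953 by width. At Hand2, the replicate 2 peak chr8:59574050-59574295 was 2.92-fold enriched (−log10 q of 3.35 in the authors' list) and met the Hoxa13 lists of E11.5 and E12.5. Its near neighbour from replicate 1, chr8:59575215-59575454 (240 bp), shared 66 bp with an E11.5 peak, met no other Hoxa13 list and did not overlap that replicate 2 peak. The third replicate 2 peak, chr8:59613303-59613502, was 3.74-fold enriched (−log10 q of 4.53) and met E11.5 alone. All 4 Hand2 sites with Hoxa11 lay between 59531196 and 59613540, in the middle of the window. Sites of all 3 Hoxa13 stages held a Hoxa11 peak in 1 of 6 cases at Gli3 and 1 of 9 at Hand2, against 5.17% of such sites in the genome. Of all sites, 1 of 49 at Gli3 and 4 of 107 at Hand2 held Hoxa11 (1.95% in the genome). Of the sites with Hoxa11, the 1 at Gli3 and 1 of the 4 at Hand2 were held by all 3 Hoxa13 stages (20.8% in the genome).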

How the data were processed

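Hoxa13 and Hoxa11 ChIP-seq peak lists of 5 libraries were used. The 4 input libraries were not analysed here. The submitters' processing notes name build mm9, MACS2 2.1.0, Bowtie2 2.2.2 and CASAVA 1.4, with thresholds, roles and use of input not given in the sources used here. Of the deposited lists, 4 hold only chromosome, start and end. That of Hoxa11 replicate 2 also holds the authors' score (the whole part of 10 times −log10 q), fold enrichment as a ratio, −log10 p and −log10 q, and summit.

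Windows came from a rule of position, and starts are printed 1-based. Members, windows and tests were chosen with earlier results of these data known. Named are every Hoxa11 peak, the 3 widest peaks of each Hoxa13 list per window, recurrent sites, the longest gap and the peaks at the limits. Density used the span between the first and last peak of each chromosome, and windows of equal length tiled that span. Exact Clopper-Pearson intervals at 95% cover counting error over peaks, not embryos. Benjamini-Hochberg adjustment ran over 11 Fisher's exact tests (SciPy 1.17.1). Overlaps were checked against bedtools 2.31.1 and tested on simulated data. Read depth is unknown. The labels do not say whether the Hoxa11 replicates came from separate litters. RefSeq promoters matched 2 of 2 genes.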

Additional observations from a re-analysis of the deposited data

How the results depend on the processing

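Peak counts were the same when peaks were placed by midpoint. With only peaks at or above each list's median width, the E11.0, E11.5 and E12.5 counts were 7, 20 and 8 at Gli3 and 16, 57 and 14 at Hand2, and Hoxa11 fell to 0 at Gli3 and to 1 per replicate at Hand2. Hand2 then had 2.37, 2.92 and 2.32 times the density of the list and Gli3 1.21, 1.19 and 1.55 times, so the order of the windows held. With windows widened by 100 kb on each side, Gli3 had 23 E12.5 peaks and Hand2 had 4 peaks of Hoxa11 replicate 1. At E12.5 Gli3 then had 1.69 times the density of the list and Hand2 2.35 times, against 1.37 and 2.61 times in the main windows. The windows thus stood closer at that stage. At E11.5 the widened windows had 1.38 and 2.13 times. Hand2 stayed the denser window at every stage. Densities relative to the list are not given here for Hoxa11 in widened windows.

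No test of the split or of sharing passed the threshold under any alternative run (adjusted p of at least 0.751 by Fisher's exact test), but several small differences turned in direction. The share of peaks at Gli3, E11.0 minus E11.5, was −6.03 points and became 4.46 with the wider peaks and 2.78 with lists of one length. E11.5 minus E12.5 went from 1.45 points to −10.4, −8.89 and, with widened windows, −2.46. Hoxa11 replicate 1 minus Hoxa13 at E11.5 went from 0.775 to −26.0 with the wider peaks and −16.5 with widened windows, over at most 5 Hoxa11 peaks. Of the shares met, Hand2 minus Gli3 turned for E11.0 peaks meeting E11.5 (−3.21 points, then 5.34 under 50% reciprocal overlap and 9.09 with lists of one length). It turned for E11.5 peaks meeting E12.5 (2.55, then −2.63 and −13.1) and for E12.5 peaks meeting E11.5 (5.30, then −9.22 under 50% reciprocal overlap). The causes were not tested. Gli3 stayed above Hand2 in the overlap of the outer stages under all 4 alternatives of that comparison, but for E12.5 peaks meeting E11.0 Hand2 minus Gli3 went from −21.0 points to −6.68 with lists of one length and −7.00 with widened windows.

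Under 50% reciprocal overlap 2 of the 5 Hoxa11 peaks at Hand2 and 0 of 1 at Gli3 met Hoxa13 at E11.5. The shares of the whole Hoxa11 lists under that rule are not given here. By 1 bp overlap, leaving out either Hoxa11 replicate left 2 to 3 peaks meeting Hoxa13 E11.5 at Hand2 and 0 to 1 at Gli3. Sites with Hoxa11 then numbered 2 to 3 at Hand2 and 0 to 1 at Gli3. Without Hoxa11 replicate 1 both of these Gli3 values were 0. No paired analysis was possible because only Hoxa11 has numbered replicates among the libraries with a list.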
